A study of Homo sapiens with 4 samples.

Results

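Hepatocyte nuclear factors and liver-type genes for secreted proteins were followed in 2 human tumour lines of neuroendocrine type in which DAXX was knocked down by siRNA. DAXX is a histone chaperone for the variant histone H3.3. The set named 8 genes: the nuclear receptors HNF4A and HNF4G, the RNA-binding protein A1CF, and the plasma protein genes AMBP, TTR, SERPINA1, APOH and FGB. Its members were chosen on values measured on these 4 arrays, namely their levels in each line and their DAXX-KD minus control differences, so the values below describe the choice and none is a test of it. HNF4A was not analysed here. The other 7 genes had 15 probe sets between them, of 19775 genes with a probe set in the whole table. All 7 genes were among the 14648 genes whose mean log2 level reached 4.85, the 40th percentile of all probe sets, here called the filter level. The mean is over all 4 arrays, so a gene can pass through a single line. SERPINA1, APOH and FGB passed through NCI-H727 alone, with both QGP1 levels under the filter level. Of the 15 probe sets, 12 reached it and 3 did not.

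There were 4 groups of 1 array each: NCI-H727 DAXX-KD, NCI-H727 control, QGP1 DAXX-KD and QGP1 control. NCI-H727 is a bronchial and QGP1 a pancreatic neuroendocrine tumour line, and the labels name no repeated culture. DAXX-KD cells received siRNA against DAXX and control cells a universal negative control siRNA, both by electroporation at a final 50 nM. The labels name a pair of DAXX siRNAs without saying whether they were pooled, and they give no time between transfection and harvest. Total RNA was amplified from the 3' end, labelled with biotin and hybridised to one-colour arrays, and the deposited values are log2 intensities after RMA (robust multi-array average), which fits the arrays to a common distribution.

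HNF4 receptors are nuclear receptors that bind DNA as dimers and keep up the transcription of many liver genes, including those for apolipoproteins, clotting factors and protease inhibitors. HNF4A is their main form in liver, whereas HNF4G is known chiefly from the intestine, kidney and pancreas, and HNF1 and FOXA factors work beside both. In hepatocytes the output of this network is secreted into blood plasma, and the same genes are in part active in enterocytes and in islet cells.

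The line names follow the sample titles, since other labels differ: QGP1 is named as the source even for NCI-H727, and all 4 descriptions speak of ALDH high QGP1 cells. Markers of origin were mixed. NKX2-1, the thyroid and lung transcription factor, had log2 levels of 3.23 and 3.35 on the NCI-H727 DAXX-KD and control arrays, against 8.38 and 8.77 on the QGP1 DAXX-KD and control arrays. GRP, the gastrin-releasing peptide of lung neuroendocrine cells, had 4.12 and 5.37 on the NCI-H727 arrays and 11.76 and 12.80 on the QGP1 arrays, in the same order. NKX2-2, a transcription factor of islet cells, had 9.25 and 9.17 on the NCI-H727 arrays and 5.93 and 4.80 on the QGP1 arrays. These 3 markers ran against the titles, since QGP1 is the line described as pancreatic. Of the other islet markers, SST, PAX6 and ISL1 ran with the titles, with NCI-H727 minus QGP1 differences of -1.96, -1.51 and -0.79 on the control arrays, and PDX1 differed by 0.24. The median of the 5 islet markers past the filter was -0.79. CALCA, the calcitonin gene of lung neuroendocrine cells, differed by -0.18 with its brightest probe set and by down to -2.36 with others. All of its probe sets were lower in NCI-H727, so CALCA also ran against the titles. The median of the 3 lung neuroendocrine markers past the filter was -5.42 on the control arrays. A second NKX2-1 probe set lay between 5.59 and 5.95 on all arrays. Which line each array holds was not tested, and every difference between lines below has the direction of the titles.

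Both lines carried neuroendocrine transcripts: CHGA, chromogranin A, had 12.27 and 12.17 on the NCI-H727 DAXX-KD and control arrays and 11.20 and 11.14 on the QGP1 arrays. Of 9 defining hepatocyte markers with a probe set, 6 passed the filter, and ALB, the albumin gene, did not, nor did ARG1 or CYP2E1. On the control arrays 2 of the 6, APOA1 and APOA2, were 2-fold or more higher in NCI-H727. Another 2, CPS1 and ASGR1, were 2-fold or more lower, and the shares over all genes were 11.3% and 10.6%. Of the leukocyte markers 1 passed the filter and of the fibroblast markers 2, and with their brightest probe sets none of these 3 differed by 2-fold between lines or treatments. Another probe set of COL1A1, a fibroblast collagen, had 2.37 and 2.22 on the NCI-H727 DAXX-KD and control arrays against 6.53 and 6.42 on the QGP1 arrays. The part of such cells in the results was not tested. The levels of ALB over its probe sets ranged between 2.26 and 3.93. Array medians lay between 5.31 and 5.36, and across genes the correlation was 0.988 between the NCI-H727 arrays, 0.993 between the QGP1 arrays and 0.812 to 0.829 between lines. DAXX itself had 6.14 on the NCI-H727 DAXX-KD array and 7.35 on its control, and 6.56 on the QGP1 DAXX-KD array and 8.52 on its control, that is 43.3% and 25.7% of the control levels. With a second probe set DAXX stood at 56.2% and 22.7%.

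On the control arrays, 6 of the 7 measured genes stood 2-fold or more higher in NCI-H727 than in QGP1, and 4 of them (AMBP, SERPINA1, A1CF and APOH) 8-fold or more, while 11.3% and 2.2% of the 14648 genes did. None of the 7 stood 2-fold lower, against 10.6% of all genes. Their median difference, NCI-H727 minus QGP1, was 3.79 on the log2 scale, beside 0.00 over all genes. On the DAXX-KD arrays 5 of the 7 were 2-fold or more higher and 3 were 8-fold or more higher, against 10.5% and 2.01% of all genes, and again 0 were 2-fold lower, against 13.4%. The median there was 2.99, beside 0.06 over all genes. As the genes were chosen on these levels, and SERPINA1, APOH and FGB passed the filter through NCI-H727 alone, the counts describe the choice. In RNA from whole cultures, fewer cells carrying a transcript and less of it per cell cannot be told apart.

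**Figure D1:**
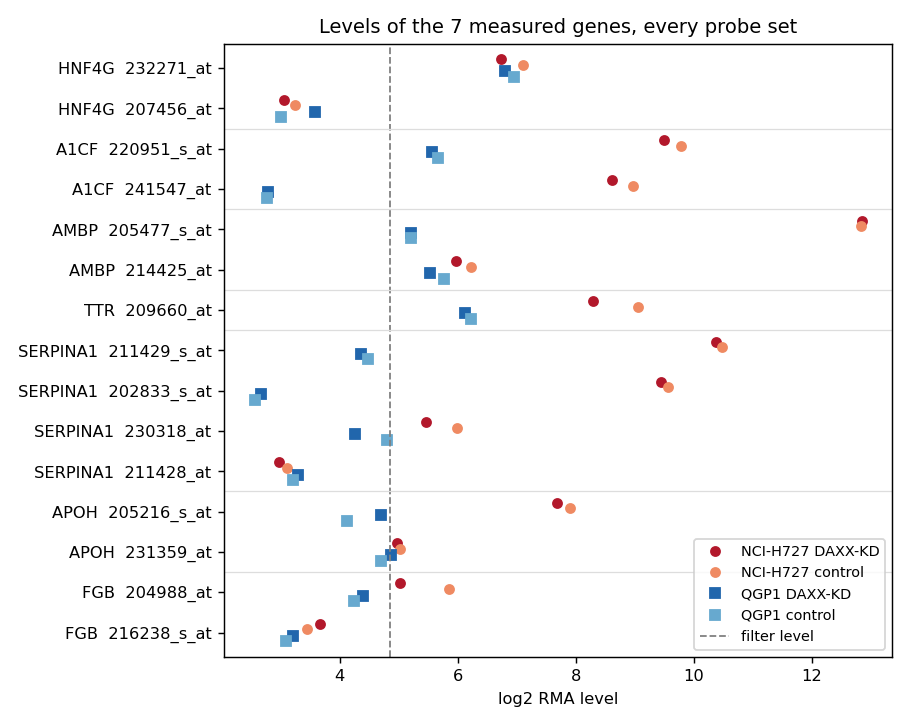
Log2 RMA level of each of the 15 probe sets of the 7 measured genes on the 4 arrays, 1 point per array, with the filter level of 4.85 marked. AMBP, SERPINA1 and A1CF separate the lines most, while HNF4G lies between 6.73 and 7.11 on all 4 arrays with its brighter probe set.

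The central 95% of all genes differed between lines by -2.60 to 2.77 on the control arrays and by -2.81 to 2.65 on the DAXX-KD arrays. Probe sets of the same gene disagreed with each other with an SD of 0.65 and 0.72 on the log2 scale, over 7159 genes with several past the filter. Of the 15 probe sets of the measured genes, 9 were 2-fold or more higher in NCI-H727 on the control arrays and 8 on the DAXX-KD arrays. The shares over all genes were 11.3% and 10.5%. Leaving out probe sets that the array design marks as shared between transcripts (names ending in s_at or x_at) lowered the median over the 7 genes to 1.18 on the control arrays and to 0.63 on the DAXX-KD arrays, and 4 and 3 genes stood 2-fold or more higher.

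RefSeq windows at the starts of AMBP, SERPINA1, A1CF and APOH are shown because these genes had the widest gaps between lines, and 5 of the 7 genes matched a window. Each window runs from 250 bases before to 50 bases after an annotated start on GRCh38.p14, on the minus strand, written 5′ to 3′ in the direction of transcription. Capitals mark CAAAG or CTTTG, the core of the HNF4 motif, and GTTAAT or ATTAAC, a short HNF1 motif, on either strand. The first SERPINA1 window covers chr14:94390586-94390885 and the second chr14:94388553-94388852, the AMBP window chr9:114078251-114078550, the A1CF window chr10:50885578-50885877 and the APOH window chr17:66229366-66229665.
SERPINA1 first start: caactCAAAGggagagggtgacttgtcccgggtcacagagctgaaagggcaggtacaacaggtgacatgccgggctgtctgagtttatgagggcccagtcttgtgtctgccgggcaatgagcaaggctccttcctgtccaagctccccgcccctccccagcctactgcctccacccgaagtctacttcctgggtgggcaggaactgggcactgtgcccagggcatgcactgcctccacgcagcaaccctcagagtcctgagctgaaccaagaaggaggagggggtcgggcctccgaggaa
SERPINA1 second start: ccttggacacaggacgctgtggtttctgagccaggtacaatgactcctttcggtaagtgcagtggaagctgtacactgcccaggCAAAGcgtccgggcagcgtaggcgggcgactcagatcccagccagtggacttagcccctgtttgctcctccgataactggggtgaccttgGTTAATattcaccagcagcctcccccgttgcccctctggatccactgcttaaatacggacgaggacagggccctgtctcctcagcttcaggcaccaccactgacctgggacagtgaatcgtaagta
AMBP: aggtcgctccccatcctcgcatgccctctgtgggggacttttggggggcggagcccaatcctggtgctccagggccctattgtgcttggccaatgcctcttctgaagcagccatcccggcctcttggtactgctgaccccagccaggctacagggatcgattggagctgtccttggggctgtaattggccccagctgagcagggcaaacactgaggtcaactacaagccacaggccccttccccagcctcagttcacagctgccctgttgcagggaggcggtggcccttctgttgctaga
A1CF: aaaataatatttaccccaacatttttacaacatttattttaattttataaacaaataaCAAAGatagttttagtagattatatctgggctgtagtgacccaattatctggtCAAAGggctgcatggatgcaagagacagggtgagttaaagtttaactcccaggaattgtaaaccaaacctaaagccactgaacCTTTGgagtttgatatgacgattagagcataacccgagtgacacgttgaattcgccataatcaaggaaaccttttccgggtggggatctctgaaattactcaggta
APOH: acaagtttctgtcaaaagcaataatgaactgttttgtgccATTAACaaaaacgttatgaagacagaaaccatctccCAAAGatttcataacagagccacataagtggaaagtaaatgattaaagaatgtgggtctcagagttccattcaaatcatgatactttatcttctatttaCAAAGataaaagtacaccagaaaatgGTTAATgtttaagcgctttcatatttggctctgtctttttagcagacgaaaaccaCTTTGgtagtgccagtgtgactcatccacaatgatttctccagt

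The APOH window held 3 copies of the HNF4 core and 2 of the short HNF1 motif, and the A1CF window 3 of the HNF4 core. The second SERPINA1 window held 1 of each, the first SERPINA1 window 1 HNF4 core, and the AMBP window neither. With 2 overlapping windows of FGB, 6 of 7 windows held the HNF4 core and 4 of 7 the short HNF1 motif, whereas 47.5% and 6.88% of the 35116 windows of the table did. Both FGB windows held the same ATTAAC, so that match was counted for each of them. The longer HNF4 motif CAAAGTCCA, which contains the core, was in none of the 7 windows, nor were the FOXA motif TGTTTAC or the C/EBP motif TTNCGCAA, searched on both strands. Those were in 0.384%, 3.42% and 0.891% of all windows. The windows differ in base composition, beside a median GC content of 58.7% over all windows. It was 32.7% and 33% for FGB, 35.0% for APOH, 36.7% for A1CF, 57.3% and 61.7% for SERPINA1 and 61.7% for AMBP. A match describes letters and is no evidence of binding.

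HNF4G, the nuclear receptor of the set, was the member that did not separate the lines. Its brighter probe set had log2 levels of 6.73 on the NCI-H727 DAXX-KD array, 7.11 on the NCI-H727 control array, 6.81 on the QGP1 DAXX-KD array and 6.95 on the QGP1 control array. The 4 levels lay within 0.38 of each other, and the lines overlapped. The line difference was 0.17 on the control arrays and -0.07 on the DAXX-KD arrays, and HNF4G ranked 5550 of 14648 from the top on the control arrays. A second probe set stayed under the filter level on all arrays, at 3.05 to 3.58 on DAXX-KD and 3.01 to 3.25 on control arrays. The gene closest to HNF4G in its pattern over the 4 arrays was MTR, with a root mean square distance of 0.008 between the log2 values after each gene's own mean was taken off.

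A1CF, which binds RNA and helps APOBEC1 to edit the apolipoprotein B transcript in the intestine and liver, was high on both NCI-H727 arrays. Its brighter probe set had 9.50 on the NCI-H727 DAXX-KD array and 9.78 on the control array, against 5.57 and 5.66 on the QGP1 DAXX-KD and control arrays. The lines did not overlap, and the gap was 17.4-fold on the control arrays and 15.2-fold on the DAXX-KD arrays. The other probe set, read at 8.62 and 8.96 on the NCI-H727 arrays and under the filter level at 2.78 and 2.77 on the QGP1 arrays, gave log2 differences of 6.20 and 5.84 for control and DAXX-KD arrays. The A1CF gene lies at chr10:50799409-50885627 (GRCh38.p14, as for the genes below), and the gene nearest to it in pattern was MOCOS, at a distance of 0.04.

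Of the 10 genes listed as the A1CF editing complex and its partners, 9 passed the filter. On the control arrays 3 of the 9 were 2-fold or more higher in NCI-H727, namely APOBEC1, APOB and RBM47, and 1 was 2-fold lower, SYNCRIP. Of all genes, 11.3% were higher and 10.6% lower. The list's median was -0.17. APOBEC1, the cytidine deaminase of the complex, had 8.40 and 8.66 on the NCI-H727 DAXX-KD and control arrays, against 3.35 and 3.99 on the QGP1 arrays, where it was under the filter level. APOB, the edited transcript and the structural protein of lipoproteins, had 8.89 and 9.05 on the NCI-H727 arrays and 4.48 and 4.09 on the QGP1 arrays. With its second probe set, under the filter level on all arrays, the control difference was 0.04. RBM47, an RNA-binding protein that can serve as a cofactor of APOBEC1, had 12.01 and 11.93 on the NCI-H727 arrays and 9.45 and 9.62 on the QGP1 arrays. Its other probe sets differed by 0.31 to 2.73 on the control arrays, with the 0.31 read under the filter level. SYNCRIP, another RNA-binding protein of the complex, was lower by 1.29 on the log2 scale on the control arrays, with other probe sets running up to 1.46.

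AMBP, the precursor from which the plasma proteins alpha-1-microglobulin and bikunin are cut, had the widest gap of the 7. It had 12.85 and 12.83 on the NCI-H727 DAXX-KD and control arrays, against 5.21 on both QGP1 arrays. That was 196-fold on the control arrays and 199-fold on the DAXX-KD arrays, the 7th highest difference of 14648 genes in either case. A second AMBP probe set gave 5.97 and 6.23 on the NCI-H727 arrays and 5.52 and 5.76 on the QGP1 arrays, a difference of 0.47 and 0.45 for control and DAXX-KD arrays. The probe sets thus disagreed on the size and shared the direction. AMBP lies at chr9:114060127-114078300, and the closest pattern among all genes was that of ARHGAP6, at a distance of 0.15.

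SERPINA1, which encodes alpha-1-antitrypsin, the main plasma inhibitor of neutrophil elastase, had 4 probe sets. The brightest had 10.38 and 10.48 on the NCI-H727 DAXX-KD and control arrays, against 4.37 and 4.49 on the QGP1 arrays, both of those under the filter level. The next had 9.44 and 9.57 on the NCI-H727 arrays and 2.66 and 2.56 on the QGP1 arrays. The log2 differences were 5.997 and 7.01 on the control arrays for these probe sets, and 6.01 and 6.78 on the DAXX-KD arrays. The third gave 1.18 and 1.20 for control and DAXX-KD arrays, and the fourth stayed under the filter level on every array. REG4 had the pattern nearest to SERPINA1, at a distance of 0.07.

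SERPINA1 lies at chr14:94376747-94390635 among 9 SERPINA genes within 344 kb, a family of protease inhibitors and hormone carriers, of which 7 passed the filter. On the control arrays SERPINA10, the protein Z-dependent inhibitor of coagulation, was higher in NCI-H727 by 2.86 and SERPINA6, corticosteroid-binding globulin, by 2.03 on the log2 scale. SERPINA3, alpha-1-antichymotrypsin, was lower in NCI-H727, with 4.85 and 4.90 on the NCI-H727 DAXX-KD and control arrays against 6.25 and 6.39 on the QGP1 arrays. SERPINA9, SERPINA4 and SERPINA5 had control differences of -0.05, 0.20 and 0.81. SERPINA10, SERPINA6 and SERPINA1, which come first along the chromosome, thus had the widest gaps, and SERPINA3, which comes last, ran the other way.

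**Figure D2:**
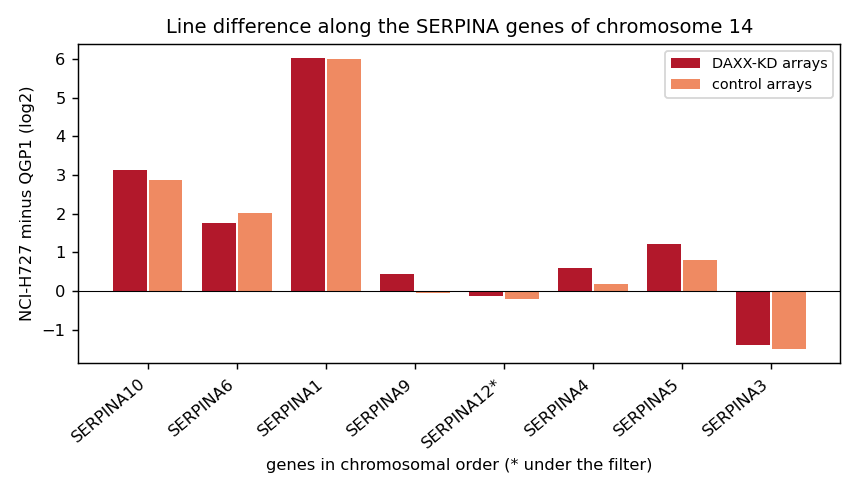
Log2 difference NCI-H727 minus QGP1 for the 8 SERPINA genes with a probe set, in chromosomal order (bars for DAXX-KD and control arrays, an asterisk marks a gene under the filter level). SERPINA1, at 6.01 and 5.997, stands above SERPINA10 and SERPINA6, and SERPINA3 lies below 0 on both pairs of arrays.

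APOH, beta-2-glycoprotein I, a plasma protein that binds phospholipids, had 7.69 and 7.90 on the NCI-H727 DAXX-KD and control arrays, against 4.70 and 4.12 on the QGP1 arrays, both under the filter level. The lines did not overlap, with log2 differences of 3.79 on the control arrays and 2.99 on the DAXX-KD arrays. A second APOH probe set lay between 4.69 and 5.02 on all arrays and differed by 0.33 and 0.11 for control and DAXX-KD arrays. CEP112, which lies next to APOH (chr17:66212033-66229415), ran the other way, with 3.81 and 4.26 on the NCI-H727 arrays and 8.71 and 9.04 on the QGP1 arrays. RIPOR3 had the pattern nearest to APOH, at 0.07.

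TTR, transthyretin, a carrier of thyroid hormone and of retinol-binding protein that liver, choroid plexus and islet cells make, lies at chr18:31591877-31598821 and had 1 probe set. It read 8.29 and 9.06 on the NCI-H727 DAXX-KD and control arrays, against 6.12 and 6.23 on the QGP1 arrays. The gap was 7.13-fold on the control arrays and 4.52-fold on the DAXX-KD arrays. FN1 had the pattern nearest to TTR, at 0.10. RBP4, the retinol-binding protein that TTR carries, lay between 5.25 and 5.37 on all arrays with its brighter probe set. The other RBP4 probe set ran between 4.66 and 5.54, with a line difference of 0.73 on the control arrays.

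FGB, the beta chain of fibrinogen, lies at chr4:154562980-154572807 and had levels near the filter level. Its brighter probe set had 5.01 and 5.86 on the NCI-H727 DAXX-KD and control arrays, against 4.39 and 4.25 on the QGP1 arrays, both under the filter level. The log2 difference was 1.61 on the control arrays and 0.63 on the DAXX-KD arrays, so that FGB passed 2-fold on the control pair alone. The second FGB probe set was under the filter level throughout. FGA and FGG, the other fibrinogen chains beside FGB on chromosome 4, differed by 0.89 and 0.30 on the control arrays, and FGG was under the filter level. ULBP2 had the pattern nearest to FGB, at 0.08.

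**Figure D3:**
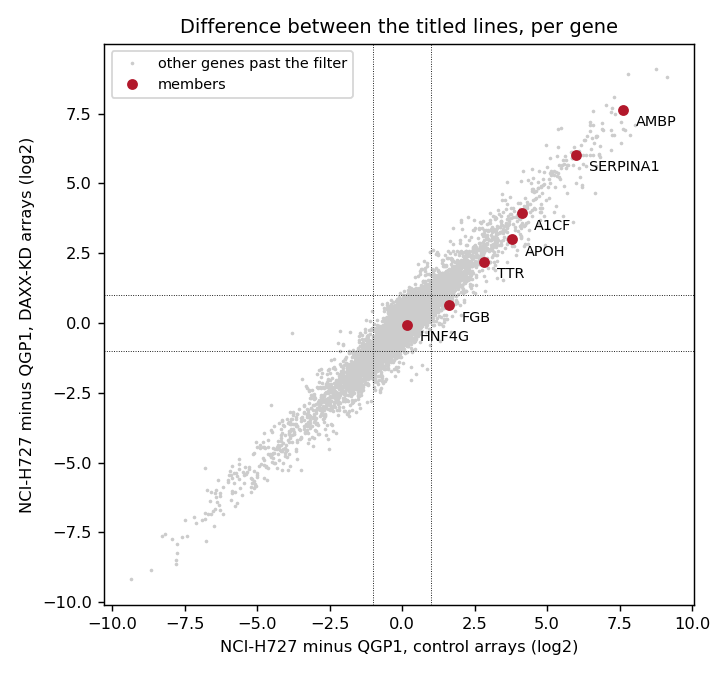
Log2 difference NCI-H727 minus QGP1 per gene, on the control arrays (horizontal axis) against the DAXX-KD arrays (vertical axis), with the 7 measured genes in red, all others in grey and dotted lines at 2-fold. AMBP (7.62, 7.64) and SERPINA1 (5.997, 6.01) lie far out on both axes, and HNF4G (0.17, -0.07) near the centre.

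The genes next to the 7 on their chromosomes did not share a direction. Of 22 flanking genes past the filter, taken 2 on each side, 5 were 2-fold or more higher in NCI-H727 on the control arrays. These 5 include SERPINA10 and SERPINA6, and 4 others were 2-fold or more lower. Of all genes, 11.3% were higher and 10.6% lower. Beside A1CF, SGMS1 differed by 1.63 and PRKG1 by -1.78, and beside AMBP, KIF12 differed by 1.29 and ZNF618 by -2.72 on the log2 scale. These neighbours were picked by position, after the values of the 7 genes were known.

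Other genes of the hepatocyte programme were only in part higher in NCI-H727. Of 72 secreted plasma proteins made by hepatocytes, 65 had a probe set and 38 passed the filter. On the control arrays 11 of the 38 were 2-fold or more higher in NCI-H727 and 5 were lower, with a median of 0.19. On the DAXX-KD arrays 14 were higher and 4 lower. Of all genes, 11.3% were higher and 10.6% lower on the control arrays, and 10.5% and 13.4% on the DAXX-KD arrays. Next to APOB, the widest were SERPINF1, a serpin secreted by many tissues, at 4.40, APOA1, the main protein of high-density lipoprotein, at 4.13, and F2, prothrombin, at 3.84. APOA1 had 9.05 and 9.23 on the NCI-H727 DAXX-KD and control arrays and 5.19 and 5.09 on the QGP1 arrays. Its other probe sets differed by 4.05 and, under the filter level, by 0.40 on the control arrays. PROS1, the anticoagulant protein S, ran the other way, with 5.01 and 6.06 on the NCI-H727 arrays and 8.83 and 9.07 on the QGP1 arrays.

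Liver-enriched transcription factors were mixed. Of 30 listed, 25 had a probe set and 21 passed the filter. On the control arrays 8 of the 21 were 2-fold or more higher and 5 lower in NCI-H727, with a median of 0.32. On the DAXX-KD arrays 4 were higher and 5 lower. The shares over all genes were 11.3% and 10.6% on the control arrays, and 10.5% and 13.4% on the DAXX-KD arrays. GATA6, a factor of the endoderm, had 8.48 and 9.08 on the NCI-H727 DAXX-KD and control arrays against 6.71 and 7.05 on the QGP1 arrays. A second GATA6 probe set differed by 0.08 on the control arrays. HHEX, a homeobox factor of liver and pancreas, had 5.32 and 5.05 on the NCI-H727 arrays against 8.59 and 8.34 on the QGP1 arrays. RXRA, the partner of many nuclear receptors, differed by 1.48 (0.71 with its other probe set) and ONECUT2, a cut-homeobox factor, by -1.78. FOXA2, a forkhead factor of endoderm, lay at nearly the same level on all arrays, with 11.10 and 11.21 on the NCI-H727 arrays and 10.96 and 10.94 on the QGP1 arrays.

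Hepatocyte enzymes, transporters and receptors followed no shared direction. Of 40 listed, 17 passed the filter, with a median of 0.14 on the control arrays. There 3 were higher and 3 lower by 2-fold or more in NCI-H727, against 11.3% and 10.6% of all genes. FABP1, the liver fatty acid-binding protein that enterocytes also make, had 10.24 and 11.17 on the NCI-H727 DAXX-KD and control arrays against 3.33 and 3.98 on the QGP1 arrays. HAL, a histidine-degrading enzyme, differed by 3.66 and ASGR2, a subunit of the asialoglycoprotein receptor, by 2.41. ASGR1, another subunit of that receptor, ran the other way and differed by -1.14. TDO2, a tryptophan-degrading enzyme of liver, had 3.12 and 3.26 on the NCI-H727 arrays against 7.57 on both QGP1 arrays. A second probe set gave 1.59 for FABP1 and, under the filter level on all arrays, 0.07 for TDO2. The other HAL probe sets gave 0.62 and, under the filter level, 0.01.

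Intestinal and foregut epithelial genes were the list with the highest median, 1.22 on the control arrays. Of 22 genes past the filter, 13 were 2-fold or more higher in NCI-H727, 8 of them 8-fold or more, and 1 was lower. The shares over all genes were 11.3%, 2.2% and 10.6%. On the DAXX-KD arrays 10 were higher and 1 lower, against 10.5% and 13.4% of all genes. TM4SF4, a membrane protein of gut and liver, had 10.57 and 10.96 on the NCI-H727 DAXX-KD and control arrays, against 4.36 and 3.76 on the QGP1 arrays. CLRN3, CDH17 (a cadherin of gut epithelium) and REG4 differed by 6.56, 6.001 and 5.86. TM4SF4, CLRN3, CDH17 and REG4 were under the filter level on both QGP1 arrays and passed the filter through NCI-H727 alone. The list was also drawn up with earlier results of these data known, so its counts and median are descriptions. SOX9, a progenitor factor of ducts and crypts, was the exception, with 5.02 and 4.77 on the NCI-H727 arrays against 9.87 and 9.56 on the QGP1 arrays.

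Regulators of the acute-phase response, the rise of plasma proteins such as fibrinogen and alpha-1-antitrypsin in inflammation, had a median of -0.32 on the control arrays. Of 11 past the filter, 1 was 2-fold or more higher in NCI-H727 and 5 were lower there, against 11.3% and 10.6% of all genes, but 2 were lower when probe sets were averaged per gene. On the DAXX-KD arrays 1 was higher and 4 were lower, against 10.5% and 13.4% of all genes. IL6R, the interleukin-6 receptor, differed by 2.23. The signalling receptor IL6ST and the factor STAT3 differed by -1.56 and -1.94. LIFR, a receptor of the same family, had 3.88 and 4.36 on the NCI-H727 DAXX-KD and control arrays against 7.98 and 8.54 on the QGP1 arrays.

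**Figure D4:**
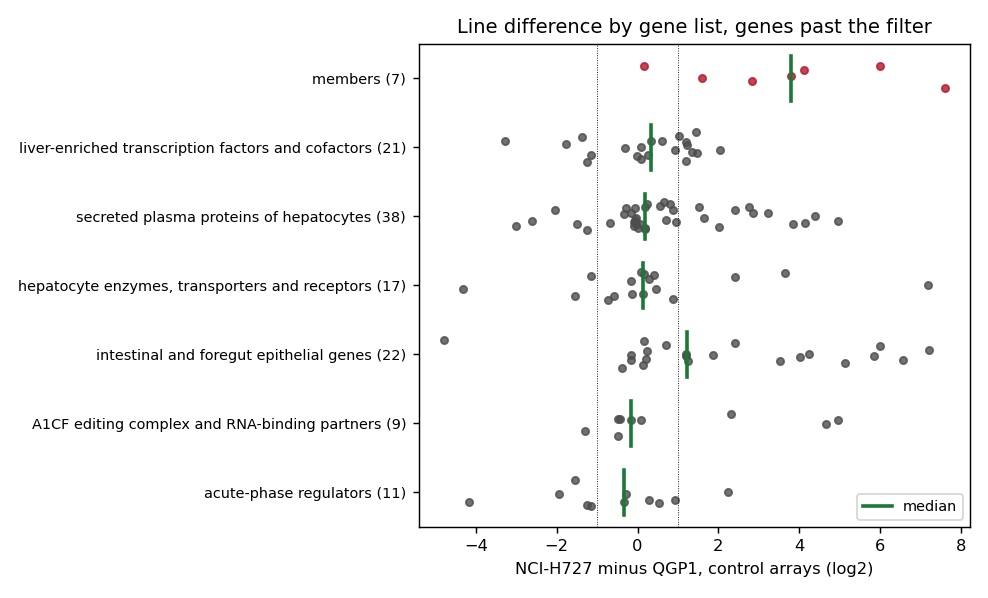
Log2 difference NCI-H727 minus QGP1 on the control arrays for the genes past the filter in each list (1 point per gene, number of genes in brackets, green bar at the median, dotted lines at 2-fold). The 7 chosen genes have a median of 3.79, the intestinal and foregut list 1.22, and the other lists between -0.32 and 0.32.

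No measured gene of the set passed 2-fold with the knockdown. In DAXX-KD minus control, 0 of 7 did so in NCI-H727, where 1.5% of all genes did, and 0 of 7 in QGP1, where 0.492% did. In NCI-H727, 6 of the 7 were lower in DAXX-KD and 1 was higher, with a median of -0.28 beside 0.02 over all genes. There 47.3% of all genes were lower. In QGP1, 5 were lower and 2 higher, with a median of -0.09 beside 0.02, and 46.2% of all genes were lower. Both higher genes, APOH and FGB, and SERPINA1 among the lower had both QGP1 levels under the filter level. Their signs carry no weight, and AMBP was lower by less than 0.01, so the QGP1 count has no direction to read. Each array was single, so no difference has a replicate error. The central 95% of all genes ran from -0.77 to 0.52 in NCI-H727 and from -0.47 to 0.52 in QGP1, and probe sets of the same gene disagreed with an SD of 0.28 and 0.20.

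Among the receptors and RNA-binding proteins, HNF4G was lower in DAXX-KD by 0.38 in NCI-H727 and by 0.14 in QGP1 on the log2 scale. A1CF was lower by 0.28 and 0.09. Its second probe set gave -0.35 in NCI-H727 and lay under the filter level on both QGP1 arrays. All of these lay inside the central 95% of genes.

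Among the secreted proteins, TTR and FGB had the largest differences in NCI-H727. TTR had 8.29 in DAXX-KD and 9.06 in control, which is 58.6% of the control level, and 6.12 and 6.23 in QGP1. FGB had 5.01 in DAXX-KD and 5.86 in control, which is 55.8%. FGB lay outside the central 95% of genes, ranking 295 from the bottom, and TTR at its edge, ranking 369. AMBP differed by 0.02 in NCI-H727 and by less than 0.01 in QGP1 with its brightest probe set, and by -0.26 and -0.24 with the other. SERPINA1 differed by -0.11 in NCI-H727 with its brightest probe set and by -0.53 with the third. APOH differed by -0.22 in NCI-H727. Both QGP1 levels were under the filter level for the brighter probe sets of APOH and FGB and for all 4 SERPINA1 probe sets.

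**Figure D5:**
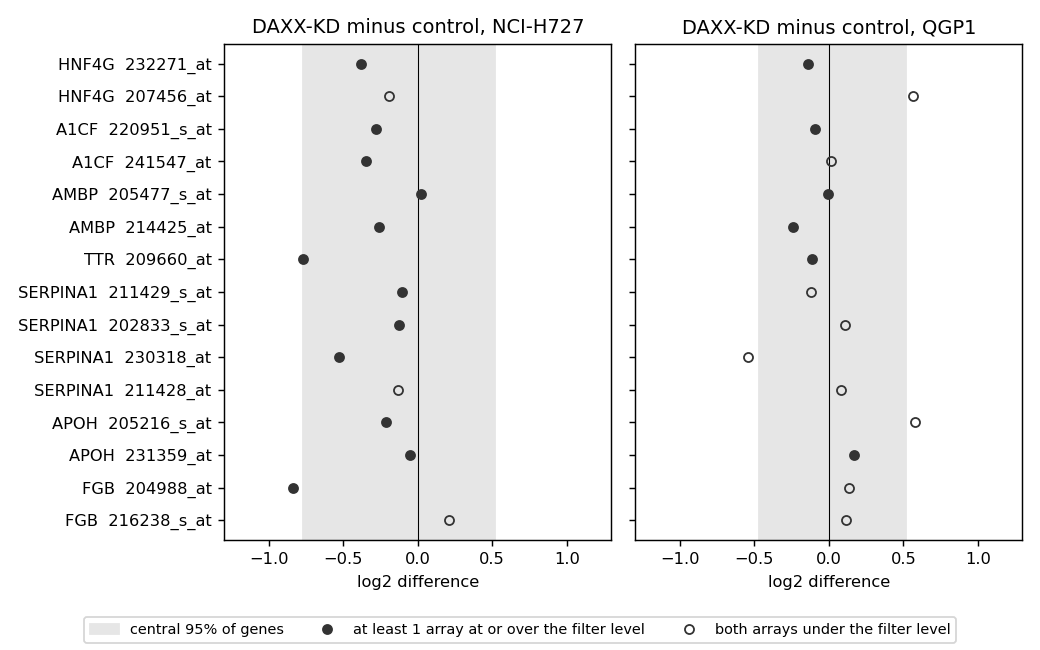
Log2 difference DAXX-KD minus control for the 15 probe sets, in NCI-H727 (left) and QGP1 (right), with open circles where both arrays were under the filter level and a grey band for the central 95% of all genes. In NCI-H727, 13 of the 15 probe sets lie below 0, and in QGP1 7 of the 15. These counts include the open circles, whose sign carries no weight and which are most of the points in QGP1. Of all genes past the filter, each with its brightest probe set, 47.3% and 46.2% lie below 0.

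A joint limma fit of DAXX-KD minus control with cell line as a block called 0 of 14648 genes at an adjusted p of 0.05 (Benjamini-Hochberg), a share of 0%, with 1014 genes at an unadjusted p under 0.05. Fitted with an intensity trend it called 5 genes. The fit's mean difference over both lines was -0.44 with a standard error of 0.19 for TTR, -0.35 with 0.25 for FGB, -0.26 with 0.14 for HNF4G and -0.19 with 0.13 for A1CF. It was -0.11 with 0.13 for SERPINA1, 0.01 with 0.13 for AMBP and 0.18 with 0.22 for APOH. For SERPINA1, APOH and FGB the QGP1 part of this mean rests on levels under the filter level, which carry no order. APOH differed by -0.22 in NCI-H727, so its positive mean comes from that QGP1 part. The 2 lines were the only repeats. The errors are moderated, with 1 residual degree of freedom and a prior of 4.18 from all genes, so they rest mostly on the spread over all genes.

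With the brightest probe set of each gene, 3 of the 115 genes of the 6 lists past the filter passed 2-fold with the knockdown in NCI-H727 and 1 in QGP1. These are shares of 2.61% and 0.87%, beside 1.5% and 0.492% of all genes. In NCI-H727 the genes were NR0B2 among the transcription factors, a corepressor that HNF4 receptors bind, and C5 and PROS1 among the plasma proteins, and 0 genes of the other lists. NR0B2 had 7.32 in NCI-H727 DAXX-KD and 8.45 in control, and 6.88 and 7.26 in QGP1 DAXX-KD and control. C5, the complement component, had 6.36 and 8.03 in NCI-H727 DAXX-KD and control, and 6.07 and 6.51 in QGP1. PROS1 had 5.01 and 6.06 in NCI-H727 DAXX-KD and control, and 8.83 and 9.07 in QGP1. In QGP1 it was CDH17, with 4.845 in DAXX-KD and 3.76 in control, both under the filter level of 4.854, so that their order carries no weight, beside 9.85 and 9.76 in NCI-H727 DAXX-KD and control. With dimmer probe sets, TF, a plasma protein gene, differed by -1.46 in NCI-H727, with both arrays over the filter level. HHEX differed by 1.07 and F5 by -1.04 there, and FOXA1 by -1.05 in QGP1, each with an array under the filter level. Of the markers of origin, GRP was lower in DAXX-KD by 2-fold or more in both lines, with its NCI-H727 DAXX-KD level of 4.12 under the filter level. In QGP1, NKX2-2 was higher by 1.13, from a control level of 4.80 under the filter level. DDC, an enzyme of amine synthesis in neuroendocrine cells, was lower there by 1.07 on the log2 scale. PAX6 was higher in QGP1 by 0.14 with its brightest probe set and by 1.65, from 5.63 to 7.29, with the other.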

How the data were processed

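Total RNA of 4 cultures was measured on 4 one-colour 3' expression arrays, 1 per group. The deposited values are log2 intensities that the authors made with RMA. The submitters' processing notes name affy 1.40.0 and R 3.0.3. RMA removes shifts shared by most genes and compresses dim differences. The table holds no detection calls. Array number limits the precision.

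Of 54613 probe sets, 41091 carried 1 gene symbol in the platform annotation and were used, and 1801 with several and 11721 with none listed were left out. The probe set of highest mean stood for each gene, and the filter kept means at or above the 40th percentile, 4.85. HNF4A is not reported here.

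Lines and treatments were compared as log2 differences, by size, with 2-fold, and 8-fold between lines, as counts. The limma fit (3.58.1, R 4.3.3) was tested on simulated data. Named were all measured members, up to 4 genes a list by line difference, those past 2-fold with the knockdown, and the nearest pattern of each member. The rule's 5 genes nearest to HNF4A could not be applied. The neighbours, FOXA2, RBP4, SOX9, TF, F5, FOXA1, the cell type markers and the SERPINA and fibrinogen genes were named after their values were seen. Members and lists were chosen with earlier results of these data known. Alternatives changed the probe set rule, filter, scaling, threshold and fit.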

Additional observations from a re-analysis of the deposited data

Results flagged for a closer look

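The DAXX-KD minus control differences of 3 genes had opposite signs in the 2 lines. APOH differed by -0.22 in NCI-H727 and by 0.58 in QGP1 on the log2 scale, where both of its QGP1 levels were under the filter level. FGB differed by -0.84 in NCI-H727 and by 0.14 in QGP1, again with both QGP1 levels under it. AMBP differed by 0.0196 in NCI-H727 and by -0.00253 in QGP1. With 1 array per group the difference between the lines was not tested.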

How the results depend on the processing

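Over 57 results and 357 recomputed alternatives, 312 stayed the same and 45 changed. A count stayed the same if it moved within a factor of 1.5. A value did so if it moved by less than the SD between probe sets of the same gene. Reversal was looked for only in values of 1 or more in size on the log2 scale, and 0 reversed. The knockdown differences of the 7 genes were all smaller, so they could not count as reversed. For AMBP the limma mean difference went from 0.01 to -0.12 with probe sets averaged per gene. Without s_at and x_at probe sets the median over the 7 genes was 1.18 on control and 0.63 on DAXX-KD arrays (main 3.79 and 2.99), 3 were 2-fold higher on DAXX-KD arrays (main 5), the intestinal list had 0 lower (main 1), and the A1CF list had 1 higher and 0 lower (main 3 and 1). At 1.5-fold, 5678 and 6302 of all genes passed between lines on control and DAXX-KD arrays (main 3210 and 3503), 961 and 449 with the knockdown in NCI-H727 and QGP1 (main 220 and 72), 2 of the 7 genes were lower in NCI-H727 DAXX-KD (main 0), and 2 acute-phase regulators were higher between lines (main 1). With probe sets averaged per gene, 119 and 44 genes passed 2-fold with the knockdown in NCI-H727 and QGP1, 5 transcription factors were higher and 3 lower (main 8 and 5), 1 enzyme was lower (main 3), 0 of the A1CF list (main 1) and 2 acute-phase regulators (main 5). With a 60th percentile filter 3 plasma proteins (main 5) and 0 enzymes (main 3) were lower. The limma fit with an intensity trend called 5 genes (main 0). For SYNCRIP, which probe set stands for the gene sets the sign. The cause of these changes was not tested beyond the rule changed. Leaving out a replicate could not be done with 1 array per group. The limma fit paired DAXX-KD with control within each line, and without that block it also called 0 genes, with 38 at an unadjusted p under 0.05. Without detection calls, values under the filter level carry no order.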
